A study of Mus musculus with 8 samples.

Results

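The Trim genes were taken as every mouse gene whose symbol is Trim, a number and at most 1 letter, read from probe sets that the array's annotation ties to a single gene. With the brightest probe set used for each gene, 63 Trim genes were measured among 30696 genes in all. Of these, 62 carried a Trim symbol in the annotation, and Trim80 was found by updating an older clone name through the RefSeq gene table. The RefSeq table holds 68 such symbols, and the other 5 (Trim17, Trim34a, Trim34b, Trim60 and Trim61) lay on probe sets shared by several genes and were left out. Expression was measured with Affymetrix arrays in whole colon tissue of 8 C57BL/6 mice, 1 array for each biological replicate. All mice were Rag1-/-, so they make no mature T or B cells of their own, and their T cells come from the transfer. The control group was 5 Treg-injected mice with non-inflamed colons, and the inflamed group was 3 Naïve T-injected mice with severely inflamed colons. Cells were given at an age of 10 weeks, and tissue was taken after a further 2 to 4 months in both groups. The stated age of 4 to 5 months covers only some of that span, and the distal colon is named in one place and a strip from cecum to rectum in another, so age and region are uncertain.

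Tripartite motif (TRIM) proteins carry a RING finger, 1 or more B-box zinc fingers and a coiled coil, followed by a variable C-terminal domain that binds the substrate. Most are E3 ubiquitin ligases, which pass ubiquitin from an E2 enzyme to a chosen protein. Many are induced by interferon and either restrict viruses or tune the sensors and adaptors that lead to interferon and NF-κB, while others act on chromatin, the cytoskeleton or muscle. In the gut they are studied as regulators of both epithelial and leukocyte signalling.

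Values are deposited log2 intensities, so a difference of 1 is a doubling. The median value of an array ran from 4.81 to 4.91. A gene was called dim in a group where its mean lay under 4.88, the median of all transcript-cluster values. RMA, the summary method used by the authors, compresses such low signals, so the sizes of changes against a dim level are uncertain. Of the 63 Trim genes, 12 were dim in both groups, and 16 had both means below 5.11, the highest median of the intronic control probe sets on any array. Colon was checked against its markers: the mean over 10 epithelial markers ran from 11.40 to 11.55 on control arrays and from 11.43 to 11.55 on inflamed arrays. The 9 measured T cell markers ran from 5.27 to 5.39 and from 6.44 to 7.16, and the 10 macrophage and monocyte markers from 6.25 to 6.51 and from 7.88 to 8.21. Xist was high on control replicates 3, 4 and 5 and inflamed replicate 3 and low on the other 4 arrays, so both groups held mice of both sexes, and sex was tried as a block. Because tissue was measured in bulk, fewer cells of a type and less RNA per cell cannot be told apart, and the part of the marker shifts in the results on Trim genes was not tested.

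The largest changes among Trim genes in inflamed colon were rises of Trim15 and Trim40, which share a stretch of chromosome 17, and falls of Trim30d and Trim30a, which are next to each other on chromosome 7. In limma's test with Benjamini-Hochberg adjustment over all 30696 genes, 10 of 63 Trim genes had an adjusted p under 0.05, against 13.1% of all genes. Trim15, Trim40, Trim59 and Trim37 rose (8.07% of all genes did), and Trim36, Trim2, Trim30d, Trim30a, Trim14 and Trim38 fell (5.04% of all genes did). The share of Trim genes called was 15.9%, which is close to the share of all genes. Among genes above the dim limit in at least 1 group, 17.6% of the 51 Trim genes and 19.5% of all 19607 genes were called. Changes of at least 2-fold were found for 4 called Trim genes, namely Trim15, Trim40, Trim30d and Trim30a (2.38% of all genes passed both conditions). The median change over the 63 Trim genes was -0.055, beside -0.013 over all genes. Of the Trim genes 25 were higher and 38 lower, and of all 30696 genes 13751 were higher and 16945 lower. The inflamed and control arrays did not overlap for 18 Trim genes (21.2% of all genes), with the inflamed arrays above for 10 (12.0%) and below for 8 (9.17%). Without an adjustment, 22 Trim genes had p under 0.05 (28.5% of all genes did). Leaving out single arrays moved the number of rises from 4 to 2 (without inflamed replicate 1) and to 7 (without inflamed replicate 2).

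**Figure D1:**
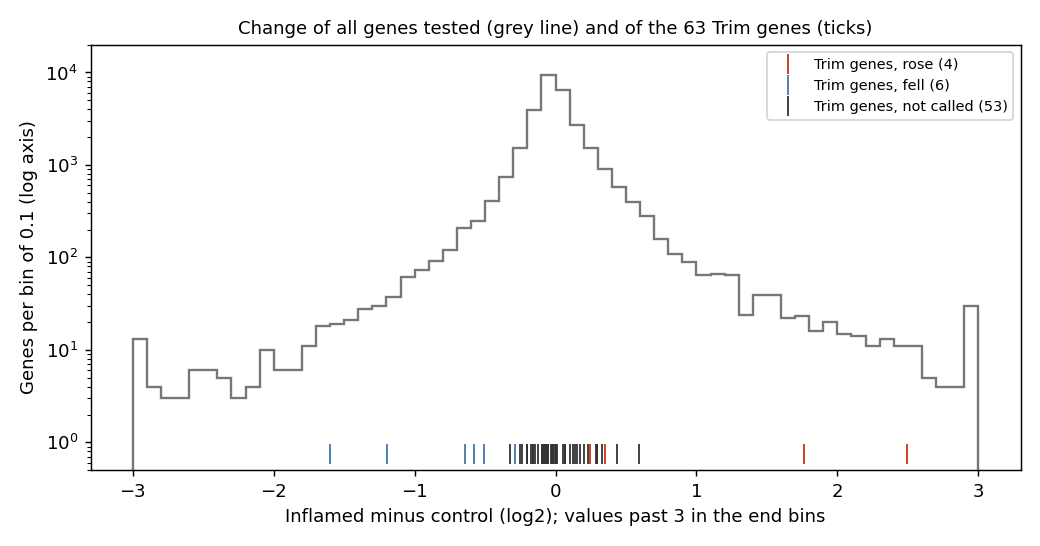
Inflamed minus control difference (log2, horizontal axis) of all 30696 genes, as a line of counts per bin of 0.1 on a log axis, with the 63 Trim genes as ticks, red for the 4 that rose, blue for the 6 that fell and black for the 53 not called. Most Trim genes sit near 0, and Trim15 (2.50) and Trim30d (-1.60) lie at the ends of the family.

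Trim15 and Trim40 are neighbours, with Trim10 between them, in a run of 15 protein-coding genes on chromosome 17 that starts with Trim39, holds 9 H2-M genes of the major histocompatibility complex and ends with Trim26, Trim15, Trim10, Trim40 and Trim31. Trim15 is a focal adhesion protein that also takes part in antiviral signalling, and Trim40 is a gut-expressed inhibitor of NF-κB signalling. The 250 bases before the annotated start of each are shown, since these genes had the largest rises in the family (RefSeq, GRCm38.p6, minus strand, chr17:36867188-36867437 for Trim15 and chr17:36890126-36890375 for Trim40). Capitals mark a match to TTCNNNGAA, the core of the GAS element bound by STAT factors, whose first base is 249 bases before the start of Trim15.
Trim15: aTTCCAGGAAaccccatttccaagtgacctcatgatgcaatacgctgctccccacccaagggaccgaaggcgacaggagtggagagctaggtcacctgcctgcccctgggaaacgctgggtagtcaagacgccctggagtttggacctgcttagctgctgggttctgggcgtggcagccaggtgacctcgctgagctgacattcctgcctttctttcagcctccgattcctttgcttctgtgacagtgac
Trim40: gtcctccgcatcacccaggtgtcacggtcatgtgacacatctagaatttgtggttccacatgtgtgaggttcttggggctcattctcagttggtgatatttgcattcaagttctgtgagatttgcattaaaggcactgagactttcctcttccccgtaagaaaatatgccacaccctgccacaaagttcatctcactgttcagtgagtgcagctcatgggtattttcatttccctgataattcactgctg
The Trim40 stretch held no match to this core, to TGANTCA or to the interferon-response core described with the chromosome 7 genes. Aligned to each other, the stretches were identical in 50.2% of columns.

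On the 5 control arrays, in order of replicate, Trim15 was measured at 8.50, 8.02, 7.28, 8.47 and 7.35, and on the 3 inflamed arrays at 10.39, 10.17 and 10.71. Every inflamed array lay well above every control array, and controls 1 and 4 were the highest controls. Trim15 rose by 2.50 ± 0.33 (log2, SE), or 5.65-fold, from 7.92 ± 0.59 (SD, n = 5) to 10.42 ± 0.27 (SD, n = 3), with a limma adjusted p of 0.00397. Trim40 was measured at 8.53, 7.99, 7.68, 8.39 and 7.68 on control arrays and at 9.90, 9.75 and 9.80 on inflamed arrays. The inflamed arrays were again all above the controls and stood close together. Trim40 rose by 1.76 ± 0.22, or 3.39-fold, from 8.05 ± 0.40 to 9.82 ± 0.07 (limma adjusted p = 0.00275). Both calls held in all 18 alternative settings other than the replicate block, with adjusted p of at most 0.0197 for Trim15 and 0.0162 for Trim40. As measured beside these rises, the mean over the epithelial markers differed between groups by -0.0065, with 1 of the 10 risen and 2 fallen. All 10 macrophage and all 9 T cell markers rose (8.07% of all genes did).

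The other 4 measured Trim genes of chromosome 17 did not pass the threshold, although all 6 changes there were positive (these 6 were put together after their values were seen). Trim31, a ligase with high levels in gut that acts on MAVS and NLRP3, was measured at 10.28, 9.90, 9.87, 10.19 and 9.75 in controls and at 10.35, 10.63 and 10.32 in inflamed colon. The inflamed arrays were all above the controls, by a small margin over control 1. The difference was 0.43 ± 0.14 (limma adjusted p = 0.0861). Trim26, which acts on interferon signalling, was also apart, with a difference of 0.15 ± 0.048 (adjusted p = 0.0882), and passed with array weights. Trim39 overlapped between groups, at 0.05 ± 0.030 (adjusted p = 0.298).

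Trim10, known for its part in red cell maturation, was dim in controls and measured at 4.78, 4.75, 4.79, 4.59 and 4.78. The inflamed arrays stood at 5.12, 4.58 and 5.40, so 2 lay above and 1 below every control. The difference was 0.30 ± 0.17 (limma adjusted p = 0.285). It was called without inflamed replicate 2, at 0.52 (adjusted p = 0.0142), and was 0.12 without replicate 3. Trim10 was also called with array weights, at 0.45 (limma adjusted p = 0.0247). The 3 measured erythroid markers had a mean of 6.58 to 6.77 on control arrays and of 6.69, 7.01 and 6.89 on inflamed arrays, and their part in the Trim10 values was not tested.

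The Trim cluster of chromosome 7 holds interferon-inducible, antiviral Trim genes that have multiplied in rodents. RefSeq orders it as Trim6, Trim34a, Trim5, Trim12a, Trim34b, Trim12c, the predicted gene Gm38525, Trim30b, Trim30c, Trim30a and Trim30d. The list used for this cluster holds the same genes with Trim30e in place of Gm38525. Of it 8 genes were measured, of which 2 fell (5.04% of all genes did), 0 rose and 6 were not called, with a median change of -0.12. The 120 bases just before the starts of 4 cluster genes are shown because they carry the core of the interferon-stimulated response element (GAAA, any 2 bases, then GAAA), in capitals and read here on the other strand (RefSeq, GRCm38.p6, all on the minus strand). The windows are chr7:104465194-104465313 for Trim30a, chr7:104507850-104507969 for Trim30d, chr7:104353350-104353469 for Trim12c and chr7:104288107-104288226 for Trim5, and the first base of the match is 36, 41, 29 and 49 bases before the start.
Trim30a: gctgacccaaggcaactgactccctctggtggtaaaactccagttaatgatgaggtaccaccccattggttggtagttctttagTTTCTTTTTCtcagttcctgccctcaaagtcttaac
Trim30d: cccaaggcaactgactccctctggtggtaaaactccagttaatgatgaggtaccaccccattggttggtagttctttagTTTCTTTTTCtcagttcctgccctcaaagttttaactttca
Trim12c: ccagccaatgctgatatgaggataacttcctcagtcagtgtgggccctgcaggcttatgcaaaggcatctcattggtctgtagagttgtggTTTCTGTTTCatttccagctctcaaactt
Trim5: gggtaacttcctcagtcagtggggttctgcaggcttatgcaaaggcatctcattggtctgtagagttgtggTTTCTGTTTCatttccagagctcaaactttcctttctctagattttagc
The capitals are the same letters in Trim30a and Trim30d, which fell, and the same letters in Trim12c and Trim5, which were not called. Over the 250 bases before the start, Trim30a and Trim30d were identical in 89.0% of 255 aligned columns, Trim12a and Trim12c in 69.3%, and Trim30a and Trim12c in 55.1%.

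Trim30d was measured at 9.55, 9.22, 9.46, 9.72 and 8.98 on control arrays and at 8.04, 7.87 and 7.45 on inflamed arrays. The highest inflamed array lay below the lowest control. Trim30d fell by 1.60 on the log2 scale (SE 0.20), a 3.03-fold decrease from 9.39 ± 0.29 (SD, n = 5) to 7.79 ± 0.30 (SD, n = 3), with a limma adjusted p of 0.00276. Trim30a, which lowers Toll-like receptor signalling by promoting loss of the TAB2 and TAB3 adaptors, was measured at 8.79, 8.60, 8.51, 9.05 and 8.19 in controls and at 7.72, 7.11 and 7.48 in inflamed colon. The groups were again apart, and controls 4 and 1 were highest for both genes. Trim30a fell by 1.19 (SE 0.21), 2.29-fold, from 8.63 ± 0.32 to 7.44 ± 0.31 (limma adjusted p = 0.0113). These falls were called in all 18 alternatives other than the replicate block, with adjusted p up to 0.0101 for Trim30d and 0.0335 for Trim30a. Trim30a and Trim30d are close copies, so how far their probe sets measure separate RNAs is uncertain.

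The other 6 measured members of the cluster were not called. Trim12a was measured at 8.80, 8.44, 8.40, 8.88 and 8.46 in controls and at 8.34, 8.42 and 8.31 in inflamed colon, and the difference was -0.24 ± 0.12 (limma adjusted p = 0.26). Trim12c was measured at 8.60, 8.31, 8.31, 8.46 and 8.31 in controls and at 8.31, 8.35 and 8.08 in inflamed colon (-0.15 ± 0.092, adjusted p = 0.33). Both sets of arrays overlapped, and controls 1 and 4 were again highest. Trim5, the mouse relative of a retroviral capsid restriction factor, stood at 8.30, 8.02, 7.83, 8.31 and 7.96 against 8.18, 8.06 and 7.83, a difference of -0.06 ± 0.14 (adjusted p = 0.808) that turned to 0.04 without inflamed replicate 3. Trim6, which builds free ubiquitin chains that activate IKKε, was measured at 6.31, 6.27, 6.15, 6.33 and 5.94 in controls and at 6.65, 6.39 and 6.56 in inflamed colon. Every inflamed value of Trim6 lay above the controls, with a difference of 0.33 ± 0.10 that missed the threshold (limma adjusted p = 0.0792). It passed with array weights, at 0.40 (adjusted p = 0.0363).

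Trim30b and Trim30c, the remaining Trim30 copies, were dim in both groups. Trim30b was measured at 4.22, 4.19, 4.19, 4.22 and 4.15 in controls and at 4.31, 4.16 and 5.01 in inflamed colon. The difference of 0.30 ± 0.17 (limma adjusted p = 0.312) came mostly from inflamed replicate 3, and was 0.038 without it. That array also had the highest mean over 8 neutrophil markers, 8.80, beside 6.76 and 7.27 on the other inflamed arrays and 4.90 to 5.16 on controls; the part of this in the Trim30b value was not tested. Trim30c differed by -0.09 ± 0.053 (adjusted p = 0.322).

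Whether close relatives changed by different amounts was tested for 12 of 14 listed pairs, by the difference of the log2 values of both genes within each array and an exact two-sided permutation test over the 56 splits of the arrays. The smallest p this design allows is 0.0179, and 4 of the 12 pairs reached it. Their adjusted p over the 12 pairs was 0.0536, and 0 pairs passed the threshold. With only 4 pairs at the smallest possible p, none could pass, so 0 calls says little about these pairs. Trim30a minus Trim30b ran from 4.04 to 4.83 in controls and from 2.48 to 3.41 in inflamed colon, a change of -1.49. Trim30a minus Trim30c changed by -1.11, Trim2 minus Trim3 by -0.59 and Trim21 minus Trim38 by 0.58, each with exact p = 0.0179. In these 4 pairs no inflamed array lay within the control range. Trim30b, Trim30c and Trim38 were dim, so the sizes in 3 of these pairs are uncertain. The changes of Trim30a and Trim30d differed by 0.41 (exact p = 0.0714, adjusted 0.171), and their within-array differences overlapped between groups. Without inflamed replicate 2 this was 0.61, and without inflamed replicate 3 it was 0.21.

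**Figure D2:**
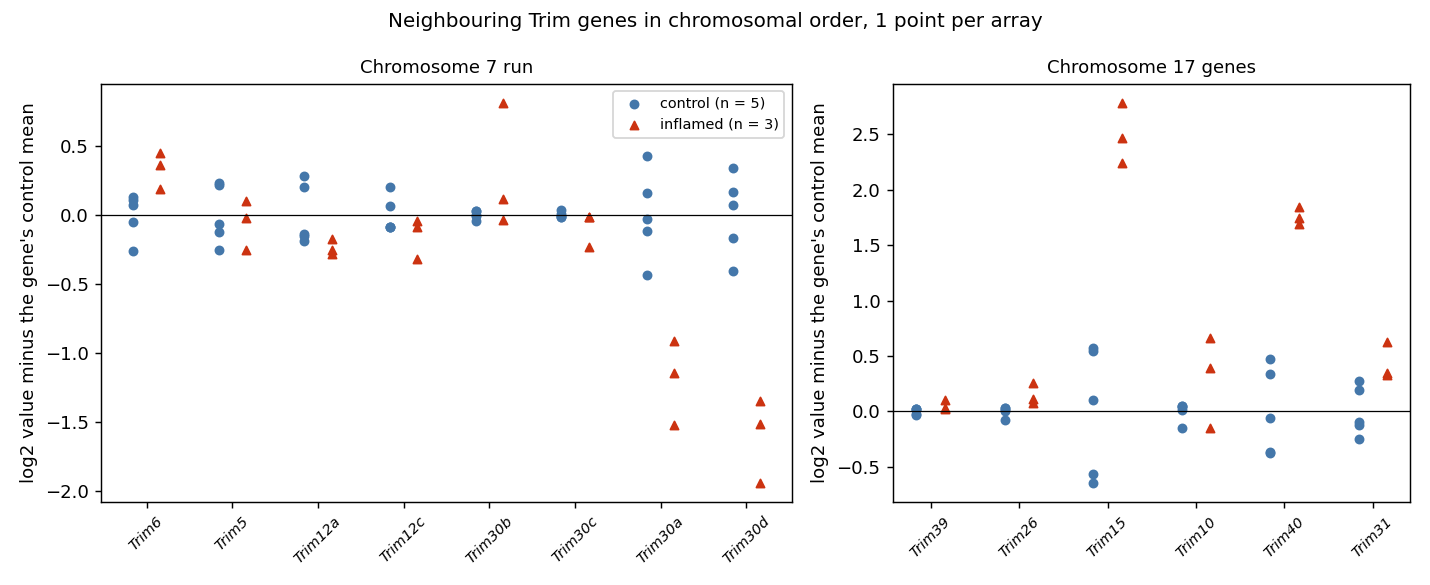
Log2 value on each array minus the gene's control mean (vertical axis) for the measured Trim genes of the chromosome 7 run and of chromosome 17, in RefSeq order, with blue circles for control (n = 5) and red triangles for inflamed arrays (n = 3). Trim30a and Trim30d, side by side at the end of the chromosome 7 run, have mean differences of -1.19 and -1.60 log2 units, and Trim15 and Trim40 of 2.50 and 1.76.

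The 16 other Trim genes listed for innate immunity include Trim15 and Trim40, which rose (8.07% of all genes did). They also include Trim14 and Trim38, which fell (5.04% of all genes did), while 12 were not called. The median change over the list was 0.069. Trim14, a mitochondrial adaptor of MAVS signalling without a RING finger, was measured at 8.42, 8.27, 8.34, 8.30 and 8.19 in controls and at 8.06, 7.87 and 8.11 in inflamed colon. No arrays of the groups overlapped. Trim14 fell by 0.29 (SE 0.070), 1.22-fold (limma adjusted p = 0.0374). The call ended with the sex pattern of the arrays as a block (adjusted p = 0.0707) and with low values raised to the dim limit (0.0637). It also ended without control replicate 1, 2, 3 or 4 or inflamed replicate 1 or 2. Over the arrays left out, values lay between -0.34 and -0.22 and adjusted p between 0.0408 and 0.0807. Trim38, which dampens Toll-like receptor and cytokine signalling, was measured at 4.18, 3.65, 3.71, 3.62 and 3.77 in controls and at 3.35, 3.34 and 3.15 in inflamed colon. All 8 values lay under the dim limit, control 1 stood apart from the other controls, and the groups did not overlap. Trim38 fell by 0.51 (SE 0.13; limma adjusted p = 0.0451), a call that ended without control replicate 2, 3, 4 or 5 or any single inflamed replicate, with values from -0.55 to -0.41 and adjusted p from 0.0135 to 0.122. With low values raised to the dim limit the whole Trim38 difference disappeared, and the call also ended with median centring (adjusted p = 0.0551) and array weights (0.0538).

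Among the other members of this list, Trim25, the ligase of the RNA sensor RIG-I, was measured at 9.82, 9.48, 9.53, 9.83 and 9.48 in controls and at 9.48, 9.26 and 9.39 in inflamed colon. The groups met at 1 shared value, and the difference was -0.25 ± 0.11 (limma adjusted p = 0.181). Trim65, the ligase of the RNA sensor MDA5, stood at 6.94, 6.71, 6.94, 6.80 and 6.70 against 6.30, 6.71 and 6.46. Its difference of -0.33 ± 0.10 (adjusted p = 0.084) overlapped through inflamed replicate 2, and without that array it was -0.44 (adjusted p = 0.0263). Trim65 also passed with array weights or scaling on the 75th percentile. Trim21, a cytosolic antibody receptor, differed by 0.07 ± 0.060 (adjusted p = 0.469). Trim27, a ligase of endosomal and innate signalling, had inflamed arrays above all controls, at 7.68, 7.47 and 7.73 against 7.20 to 7.45. Its difference was 0.29 ± 0.081 (limma adjusted p = 0.0585). Trim27 passed with median centring, dim genes left out, array weights or without inflamed replicate 2. The Trim25 and Trim65 changes differed by 0.076 (exact permutation p = 0.679, adjusted 0.74). The remaining members, Trim8, Trim13, Trim23, Trim35, Trim56 and Trim69, had differences between -0.16 and 0.23 and were not called.

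Outside the immune lists, the clearest falls were of Trim2 and Trim36. Trim2, an NHL-repeat ligase of neurofilament light chain, was measured at 8.21, 8.08, 8.18, 8.14 and 8.13 in controls and at 7.58, 7.63 and 7.32 in inflamed colon. The control arrays stood within a narrow range and every inflamed array lay below it. Trim2 fell by 0.64 (SE 0.0715), 1.56-fold, from 8.15 ± 0.05 to 7.51 ± 0.17 (limma adjusted p = 0.00197). Trim36, which binds microtubules and centromere proteins, was measured at 8.01, 7.76, 7.80, 7.92 and 7.79 in controls and at 7.28, 7.34 and 7.21 in inflamed colon. The groups were apart by more than the range of either. Trim36 fell by 0.58 (SE 0.065), 1.5-fold, from 7.86 ± 0.10 to 7.28 ± 0.07 (limma adjusted p = 0.00196). Both falls were called in all 18 alternatives other than the replicate block. Beside them, 7 of 10 smooth muscle markers and 3 of 8 measured neuron and glia markers fell (5.04% of all genes did). The smooth muscle mean was 9.74 to 10.21 on control and 9.29 to 9.37 on inflamed arrays. The neuron and glia mean was 5.90 to 6.17 and 5.59 to 5.77, with Elavl4 dim in both groups. The part of these markers in the falls of Trim2 and Trim36 was not tested.

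The other NHL-repeat genes, which bind RNA or substrate proteins through that domain, were lower without being called. Trim3, a brain-rich relative of Trim2, differed by -0.05 ± 0.032 (limma adjusted p = 0.309), Trim32 by -0.09 ± 0.062 (0.355) and Trim71, a stem cell regulator, by -0.20 ± 0.084 (0.164). Of the cytoskeleton-binding list, 5 of 6 members were measured and only Trim36 was called (13.1% of all genes were). The other 4 (Trim46, Trim67, Trim9 and Trim42) differed by -0.09 to 0.13, and Trim9 and Trim42 were dim in both groups.

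The remaining calls were 2 small rises. Trim59, a membrane-anchored ligase found in macrophages and proliferating cells, was measured at 6.56, 6.79, 6.80, 6.78 and 6.68 in controls and at 7.11, 6.98 and 7.12 in inflamed colon. Every inflamed array was above the controls. Trim59 rose by 0.35 ± 0.067, 1.28-fold, from 6.72 ± 0.10 to 7.07 ± 0.08 (limma adjusted p = 0.0152), and the call ended without inflamed replicate 1, at 0.33 (adjusted p = 0.0606). Trim37, which limits centriole assembly and takes part in peroxisome import, was measured at 7.26, 7.31, 7.37, 7.27 and 7.25 in controls and at 7.61, 7.61 and 7.39 in inflamed colon. Inflamed replicate 3 was only just above the highest control. Trim37 rose by 0.24 ± 0.058, 1.18-fold (limma adjusted p = 0.0351). The call ended with the sex pattern as a block (0.22, adjusted p = 0.0616), with median centring (0.0584) and with low values raised to the dim limit (0.0571). It also ended without control replicate 1, 2, 4 or 5 or inflamed replicate 1 or 2. Over the arrays left out, values ran from 0.21 to 0.32 and adjusted p from 0.00715 to 0.121.

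**Figure D3:**
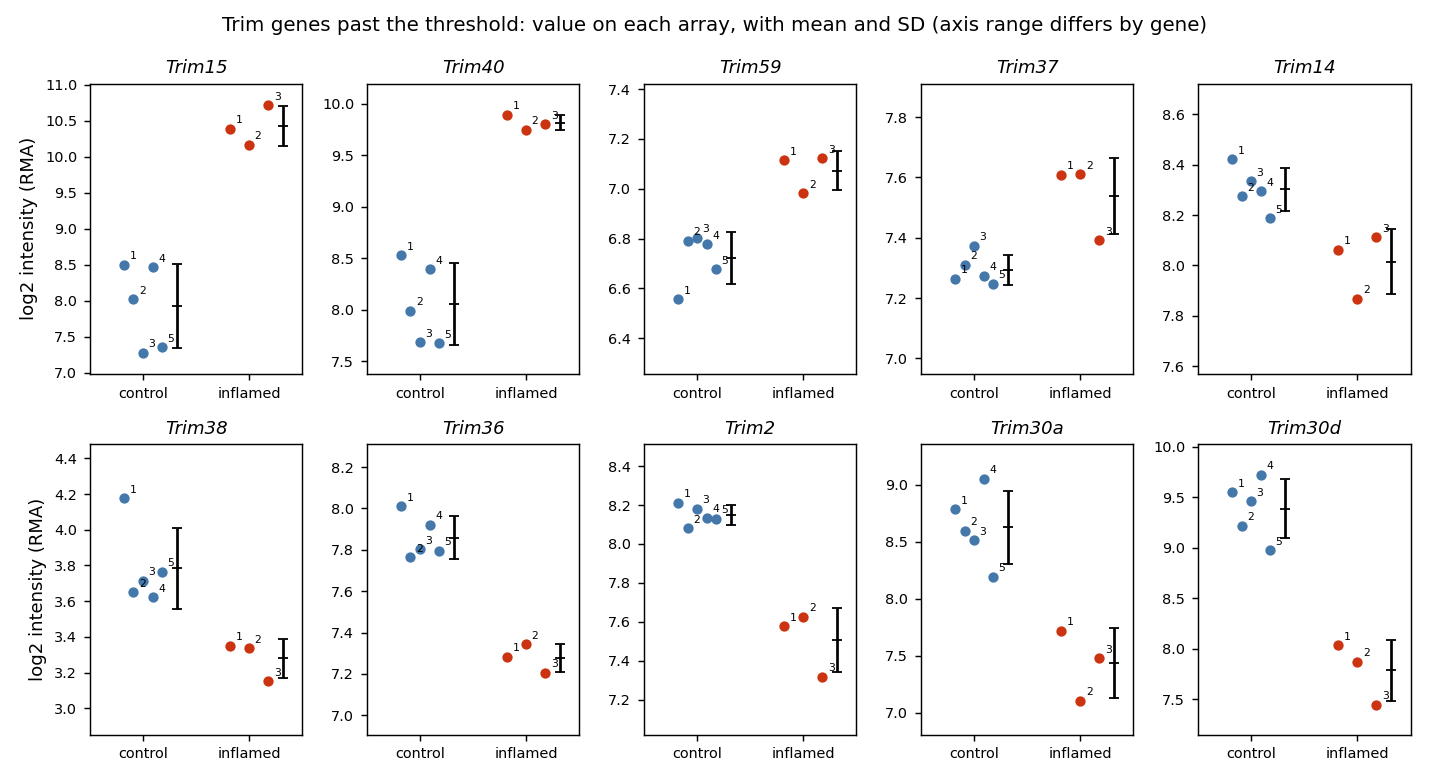
Log2 intensity of the 10 called Trim genes on each of the 8 arrays, with control (blue, n = 5) and inflamed (red, n = 3) arrays as points numbered by replicate, black bars for the group mean and SD, and an axis range that differs by gene. In all 10 genes the inflamed arrays lie entirely above or entirely below the control arrays, from Trim15, whose control values span 7.28 to 8.50, to Trim37, where inflamed replicate 3 (7.39) is just above control replicate 3 (7.37). The genes were called on these same arrays, so this separation is a description and no added support.

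The nuclear, muscle, epithelial, erythroid and germ line lists held no called member (13.1% of all genes were called). Each had only 2 to 5 measured genes, so 0 calls says little about a class. The 4 nuclear Trim genes, which regulate transcription through chromatin readers or KRAB zinc finger proteins, had a median change of 0.024. Trim24, a chromatin reader, stood at 7.89 ± 0.11 in controls and 8.10 ± 0.27 in inflamed colon (0.20 ± 0.12, limma adjusted p = 0.316), and without inflamed replicate 2 the difference was 0.046. Trim28, the KRAB corepressor, differed by -0.05 ± 0.067 (adjusted p = 0.652), Trim33, a SMAD partner, by 0.07 ± 0.069 (0.546), and Trim66 was dim. The signs of the Trim28 and Trim33 differences turned without inflamed replicate 2, to 0.029 and -0.027. None of the 3 differences between Trim24, Trim28 and Trim33 passed the exact permutation test (adjusted p from 0.25 to 0.6).

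The 4 muscle genes (Trim54, Trim55 and Trim63, ligases of the sarcomere, and Trim72, a membrane repair protein) had differences of -0.10 to -0.03 and a median of -0.084. Trim55 was dim, and 12 skeletal muscle markers had means of 5.63 to 5.68 on control and 5.52 to 5.66 on inflamed arrays, with Myh1, Myh2 and Myh4 under the dim limit. Trim29, a regulator without a RING finger that is known from squamous and airway epithelium, had the largest difference of any member that was not called. It was measured at 5.68, 5.88, 5.80, 5.77 and 5.94 in controls and at 6.40, 5.96 and 6.86 in inflamed colon. All inflamed arrays were above the controls, replicate 2 only just, and the difference was 0.59 ± 0.18 (limma adjusted p = 0.075). It was called without inflamed replicate 2, at 0.82 (adjusted p = 0.0121), and was 0.37 without replicate 3 (adjusted p = 0.117). Trim29 also passed with median centring, quantile normalization, array weights or dim genes left out. The 7 measured markers of squamous epithelium had a mean of 6.55 on inflamed replicate 3, beside 4.70 and 4.54 on the other inflamed arrays and 4.60 to 4.67 on controls, with Trp63 and Sprr3 under the dim limit; their part in the Trim29 value was not tested. The other epithelial members, Trim7, Trim16, Trim50 and Trim62, differed by -0.18 to 0.01. For Trim16, a galectin-linked autophagy regulator, the inflamed arrays lay below all controls (-0.13 ± 0.040, adjusted p = 0.082). Trim16 passed with scaling on the 75th percentile, quantile normalization, array weights or without inflamed replicate 2.

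Of 10 measured Trim genes with other somatic roles, 1 rose, namely Trim37 (8.07% of all genes rose), and the median change was -0.054. Trim44, which has a deubiquitinase-like zinc finger in place of a RING, had inflamed arrays below all controls, at 7.653, 7.50 and 7.48 against 7.655 to 7.92 (-0.20 ± 0.071, limma adjusted p = 0.109). Trim44 passed with scaling on the 75th percentile or quantile normalization. The 4 measured germ line genes, Trim43a, Trim43b, Trim43c and Trim75, were dim in both groups, with differences between -0.073 and 0.14. Across all 63 genes, 7 held the same value on at least 5 arrays, as can happen in the median polish that RMA uses.

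**Figure D4:**
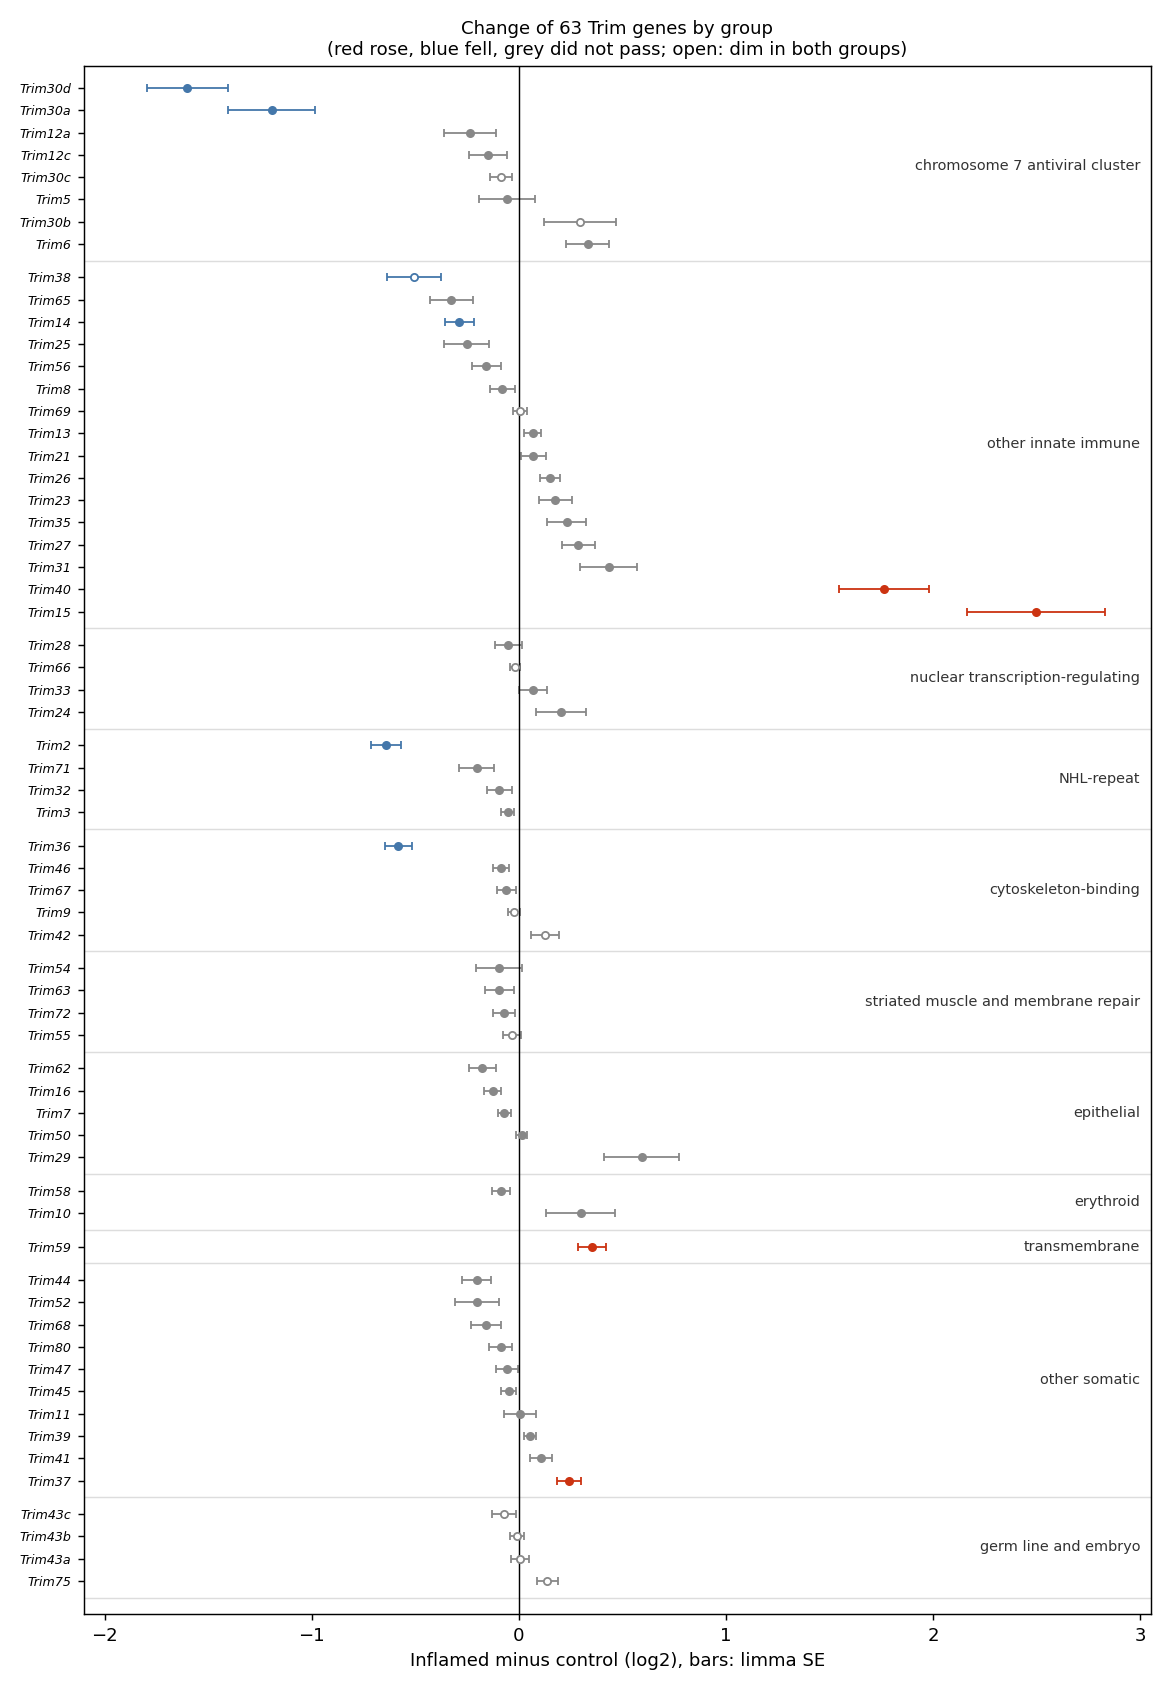
Inflamed minus control difference (log2, with SE bars) of all 63 Trim genes, ordered within the lists of their roles, with rises in red, falls in blue, genes not called in grey and genes dim in both groups as open circles. The germ line, nuclear, muscle, epithelial and erythroid lists, of 2 to 5 genes each, hold no called gene (13.1% of all genes were called). The immune lists hold both the largest rise (2.50) and the largest fall (-1.60).

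The order of the control arrays was shared by many Trim genes. Control replicates 1 and 4 were the highest 2 of the 5 controls for 13 of 63 Trim genes (20.6%), beside 6.74% of all genes. These were Trim5, Trim6, Trim12a, Trim12c, Trim30a, Trim30b and Trim30d in the chromosome 7 cluster, where the pattern held for 7 of 8 measured genes, and Trim15, Trim25, Trim31, Trim33, Trim36 and Trim40. Among the interferon receptors and factors, 5 of 16 (Ifnar1, Ifngr1, Jak1, Stat2 and Irf1) had it too. This pattern was noticed in the values and is a description without a test, and related sequences in the cluster mean that its genes are not independent.

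Windows of 300 bases, from 250 before to 50 after an annotated start, were found in the RefSeq promoter table for 49 of the 63 Trim genes (63 windows). The interferon-stimulated response element core (GAAA, any 2 bases, GAAA) occurred on either strand in 9 of these windows (14.3%), beside 3.44% of all 32851 windows. The 8 genes were Trim2, Trim5, Trim12a, Trim12c, Trim21, Trim26, Trim30a and Trim30d. Of these, Trim2, Trim30a and Trim30d fell (5.04% of all genes did) and the other 5 were not called. Trim30a and Trim30d are close copies, and a link of the motif to the falls was not tested. The GAS core TTCNNNGAA occurred in 7 windows (11.1%, beside 8.3%), of Trim15, Trim30c, Trim31, Trim38, Trim45 and Trim46, and the AP-1 motif TGANTCA in 9 windows (14.3%, beside 7.81%), of Trim2, Trim9, Trim10, Trim15, Trim30a, Trim30d, Trim44 and Trim54. Windows of the chromosome 7 cluster share sequence, and a match is a description of letters, not a binding site.

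Genes that work with Trim proteins were read from lists of their own. Among 20 measured sensors, adaptors and kinases that Trim ligases modify, 6 rose (8.07% of all genes did) and 3 fell (5.04%), with a median change of 0.20. Sting1, the adaptor of cytosolic DNA sensing, was measured at 5.87, 6.26, 6.22, 5.84 and 5.64 in controls and at 8.18, 8.80 and 8.39 in inflamed colon. The groups were far apart, and Sting1 rose by 2.49 ± 0.19 (limma adjusted p = 0.000512). Traf6, a ligase of Toll-like receptor signalling, rose by 0.56 ± 0.093 (adjusted p = 0.00894), and Ikbkb, Map3k7 and Vcp rose as well. Irf8, a myeloid transcription factor, rose by 0.81 ± 0.17 (adjusted p = 0.0241), but this call ended without control replicate 3, 4 or 5 or inflamed replicate 1 or 3, with values from 0.69 to 0.99 and adjusted p up to 0.0892 over the arrays left out.

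The 3 members that fell were Ddx58, Ifih1 and Mavs, which are named after their values were seen. Other members of the same list that take part in RNA sensing did not fall: Zc3hav1 differed by 0.20, Rnf135 by -0.091, and the kinases Tbk1 and Ikbke by 0.22 and 0.21, and none of these 4 was called. Ddx58, which encodes RIG-I, fell by 0.54 (SE 0.13, limma adjusted p = 0.0371), Ifih1, which encodes MDA5, fell by 0.54 (SE 0.14, 0.0453), and their adaptor Mavs fell by 0.48 (SE 0.12, 0.036). These calls were near the threshold. Ddx58 and Mavs lost theirs without control replicate 1, 2, 3 or 4 or inflamed replicate 1 or 3 (up to 0.118 and 0.123), and Ifih1 without control replicate 1, 2, 4 or 5 or any single inflamed replicate (up to 0.14). Values over the arrays left out ran from -0.62 to -0.47 for Ddx58, -0.60 to -0.45 for Ifih1 and -0.60 to -0.41 for Mavs.

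Of 16 measured interferon receptors and factors that switch on interferon targets, 4 rose (8.07% of all genes did) and 1 fell (5.04%), with a median change of 0.068. Ifng, the type II interferon, was dim in controls and rose by 2.01 ± 0.17 from 3.91 to 5.92 (limma adjusted p = 0.000684), or by 1.04 with low values raised to the dim limit. Irf7, which drives type I interferon genes, was measured at 10.13, 9.90, 10.39, 10.11 and 9.57 in controls and at 8.84, 8.07 and 8.69 in inflamed colon. All inflamed arrays were below the controls, and Irf7 fell by 1.49 (SE 0.23, limma adjusted p = 0.00673). Irf1, which responds to type II interferon, rose by 0.96 ± 0.15 (adjusted p = 0.00722), but with the mean over its probe sets the change was 0.54 (adjusted p = 0.0506). Ifnar2, a chain of the type I receptor, rose by 0.94, and Jak2, a kinase of the type II receptor, by 0.57. Ifnb1, a type I interferon, was dim in both groups and differed by -0.0018.

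Of 12 genes listed as Trim proteins under other symbols, 1 rose (8.07% of all genes did) and 1 fell (5.04%). The share called was 16.7%, close to the 13.1% of all genes. Mefv, which encodes the inflammasome sensor pyrin, was measured at 4.29, 4.55, 4.33, 4.30 and 4.39 in controls, where it was dim, and at 5.42, 5.35 and 5.55 in inflamed colon, and it rose by 1.07 ± 0.073 (limma adjusted p = 0.000359). With low values raised to the dim limit, its rise was 0.56 and still called. Pml, the organiser of nuclear bodies, was measured at 8.07, 7.96, 7.79, 7.99 and 7.62 in controls and at 7.12, 7.26 and 7.21 in inflamed colon, and it fell by 0.69 (SE 0.10, limma adjusted p = 0.00583). In both genes the groups did not overlap. Of 13 measured ubiquitin-activating and conjugating enzymes that serve Trim ligases, 0 were called by limma (13.1% of all genes were) and 5 had an unadjusted p under 0.05 (28.5% of all genes did). All 13 differences were positive, as were 13751 of 30696 over all genes, with a median of 0.15, and the largest were those of Ube2e1 (0.31 ± 0.091, adjusted p = 0.0676) and Uba6 (0.25 ± 0.12, adjusted p = 0.224). Without inflamed replicate 2 these were 0.19 and 0.082.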

How the data were processed

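Array data of 8 colon samples, 5 control and 3 inflamed, were used. The authors deposited log2 intensities, 1 value per probe set and array, which came from Expression Console with RMA, per the submitters' processing notes. Array model, genome build and software versions: not given in the sources used here. Of 72688 probe sets, 65956 were transcript clusters and 6732 controls were left out. Annotation covered 32750 of them: 30604 with a single symbol, 621 whose symbols belong to 1 gene, and 1525 tied to several genes, which stayed unnamed. Symbols were updated through the RefSeq table of GRCm38.p6 for 1715 probe sets. The 31225 named probe sets covered 30696 genes, and the brightest was used for the 420 genes with over 1. No levels were compared between probe sets.

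Groups were compared by linear models without covariates (limma 3.58.1, R 4.3.3, moderated by eBayes), adjusted over all genes, and the threshold was an adjusted p of 0.05. SE is limma's. The number of arrays limits the precision. Replicates are biological, per the labels, and each was treated as 1 mouse. Described in full were all called members, the measured chromosome 7 cluster, the 5 largest differences not called, the members of the listed pairs and, for lists of other genes, the members with the largest changes; further genes named with values were chosen after these were seen. The members and lists were chosen with earlier results of these data known. In simulated data of 30696 genes for this comparison, 92% of genes changed by 1 log2 unit and 99% of those changed by 2 were recovered, with 13 false calls. The simulation changed far fewer genes than were called in the data and drew its noise separately for each gene. It held no smaller changes, so it does not bear on the calls of under 1 log2 unit. Alternatives covered scaling, low values, probe sets, variance models, array weights, blocks and each array left out.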

Additional observations from a re-analysis of the deposited data

Results flagged for a closer look

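For 14 of the 63 Trim genes, 1 control array stood far from the other 4 by Dixon's test, which chance does in about 1 of 20 groups. Many of these genes hold tied values on the other arrays, where a small gap is enough and that rate does not hold. The share over all genes is not given here, so the count does not set Trim genes apart. Control replicate 1 was far for Trim38, at 4.1783 beside 3.62 to 3.77, for Trim43a, at 4.4402 beside 4.58, and for Trim43b, at 3.9877 beside 4.07, and all 3 genes are dim. Control replicate 2 was far for Trim23 (6.5004, others 6.59 to 6.62), Trim72 (6.1592, others 5.98 to 6.00) and Trim9 (4.239, others 4.18). Control replicate 4 was far for Trim10 (4.5888, others 4.75 to 4.79), Trim55 (4.3413, others 4.39) and Trim69 (3.8205, others 3.89 to 3.90). Control replicate 5 was far for Trim26 (7.7547, others 7.84 to 7.86), Trim3 (6.7725, others 6.72), Trim45 (5.4343, others 5.42), Trim58 (5.1609, others 5.02 to 5.06) and Trim75 (2.7716, others 2.93). Control replicate 3 was far for none of the 63 genes. Among these 14 genes Trim38 was the only one called.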

How the results depend on the processing

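Over the 18 alternatives without the replicate block, the calls of Trim15, Trim40, Trim36, Trim2, Trim30a and Trim30d held in all, Trim59 in 17, Trim14 in 10, Trim37 in 9 and Trim38 in 7 of 17. The count of 10 Trim genes became 16 with array weights (9 higher) and 4 with a 2-fold minimum (730 of all genes). With each array left out in turn it ran from 7 to 13, with 2 to 7 higher and 4 to 7 lower, and the count over all genes from 2508 (without inflamed replicate 1) to 4562. With an array left out, the exact test of the listed pairs is too small to bear on their stability. Replicate numbers are shared by both groups, and the labels do not say that they pair mice. Deviations from the group means correlated at -0.29, -0.053 and 0.069 between arrays of the same number. Such correlations over so few arrays cannot show whether the numbers mark pairs. With the replicate number as a block, 0 Trim genes (0 higher, 0 lower) and 0 of all genes passed in limma, with 11 and 4913 at an unadjusted p under 0.05. Some of these blocks hold only a control array, so few arrays are left to estimate the spread. Scaling on the 75th percentile made 47.2% of all calls higher, against 61.6% as reported, with 4 Trim genes higher and 9 lower, and moved the median of all genes from -0.013 to -0.061. Quantile normalization gave 51.7%, and the Trim15, Trim40, Trim30a and Trim30d calls kept their direction under each scaling. With array weights the differences of Trim28 (0.027), Trim33 (-0.0084), Trim54 (0.014) and Trim55 (0.010) turned sign. Leave-one-out values changed sign for Trim28 (-0.11 to 0.029), Trim33 (-0.027 to 0.12), Trim54 (-0.16 to 0.030), Trim55 (-0.068 to 0.0225) and Trim5 (-0.14 to 0.040), and for the pairs Trim54 minus Trim63 (-0.053 to 0.033), Trim25 minus Trim65 (-0.069 to 0.24), Trim28 minus Trim33 (-0.22 to 0.057) and Trim54 minus Trim55 (-0.10 to 0.0079). None of these was called, and the cause was not tested. Signals near background limit the dim genes.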
